A study of Mus musculus with 10 samples.

Results

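The genes described here are 9 profibrotic growth factors and matricellular proteins: the TGF-beta ligands Tgfb1, Tgfb2 and Tgfb3, the PDGF ligands Pdgfa, Pdgfb, Pdgfc and Pdgfd, and Ctgf and Thbs1, both known as TGF-beta targets. They were chosen by gene symbol, and all 9 of 24541 symbols in the deposited table passed the filter on low counts, which left 15123 genes. RNA came from kidney cells held on magnetic beads against F4/80, the surface protein of mouse macrophages that Adgre1 encodes. The 10 libraries were made from 4 mice heterozygous for the C105F substitution of uromodulin (C105F/+), a point mutation placed in C57BL/6J embryos with Cas9, a guide and a donor strand, and from 6 wild-type (+/+) littermates on the C57BL/6 background. All mice were 12 to 16 weeks old, and no other treatment is given. The edit was made in the embryo and is not limited to a cell type, and the sources used here name no founder line. Uromodulin is made by tubule cells of the thick ascending limb, and the study asked whether gene expression of kidney macrophages differs in the mutants.

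TGF-beta is secreted in a latent form, bound by its own propeptide and stored in the matrix or on cell surfaces, and has to be released by integrins, proteases or thrombospondin 1 before it can bind its receptors and activate SMAD transcription factors. PDGF ligands are dimers that bind the receptors alpha and beta, which in the kidney are found mainly on fibroblasts, pericytes and mesangial cells. PDGF-A and PDGF-B are secreted as active dimers, whereas PDGF-C and PDGF-D carry a CUB domain that a protease must remove. Macrophages are a known source of TGF-beta 1 and PDGF-B in injured kidneys, and both pathways drive fibroblasts to make matrix.

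The selected cells were a mixture. Library totals lay between 45380415 and 73643200 estimated counts. Adgre1 ranged from 13.96 to 819 CPM (reads of a gene per 1000000 reads of its library, with library sizes scaled by the TMM method). Its groups overlapped, with means of 291 ± 361 CPM in mutants and 126 ± 145 CPM in wild type (± SD). The log2 fold change of Adgre1, mutant over wild type, was 1.20 (SE 0.972, 95% interval -0.955 to 3.36). The summed level of 8 proximal tubule markers was 38840 to 81800 CPM in mutants and 41090 to 96170 CPM in wild type, and that of 10 resident macrophage markers was 606 to 7007 CPM in mutants and 239 to 3673 CPM in wild type. The libraries thus held RNA of tubule cells beside that of the labelled macrophages, and no macrophage marker was at 0 in any library. In such bulk samples a smaller number of cells of a type and less RNA per cell cannot be told apart. The mean level of Umod, the edited gene, was 2470 ± 1615 CPM over 4 mutant libraries and 10080 ± 3056 CPM over 6 wild-type libraries (± SD). The substitution changes an amino acid, so this level does not check the genotype labels.

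None of the 9 genes differed by genotype in edgeR past the threshold, an adjusted p under 0.05 over all genes. This count of 0 called stood against 0.198% of all genes, and 1 of the 9, Pdgfd, had an unadjusted p under 0.05, as 5.90% of all genes did. DESeq2 called Pdgfd alone of the 9, and 0.946% of all genes, and limma-trend called 0 of the 9. The median log2 fold change of the 9 genes was 0.11, beside 0.01 over all genes. With log2 CPM of Adgre1 as a covariate, 0 of the 9 were called in edgeR, against 0.337% of all genes, and the median was -0.21, beside -0.02 over all genes. Tgfb1, Pdgfb and Tgfb3 rose with Adgre1 across libraries and had no called change by genotype. Pdgfd had a slope on Adgre1 near 0 and was lower in every mutant library than in every wild-type library.

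**Figure D1:**
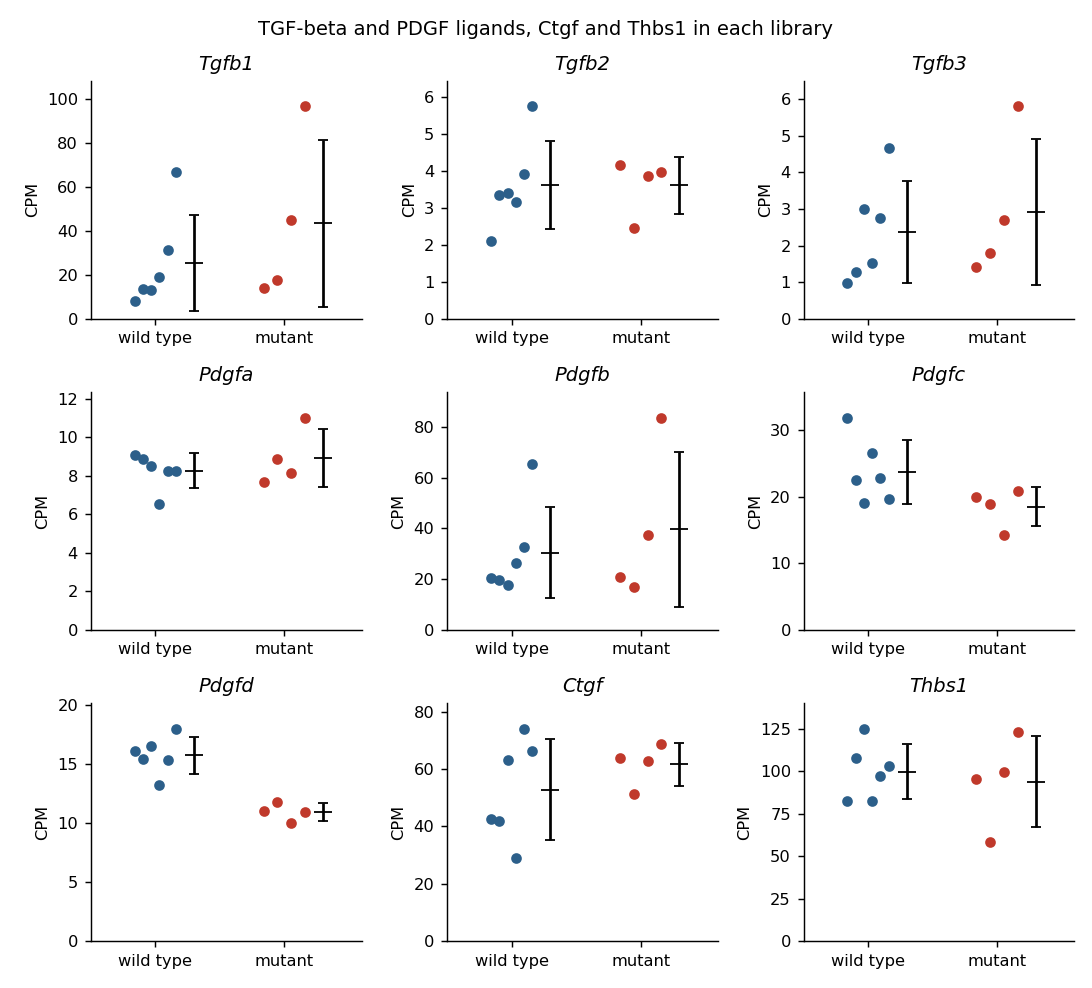
Each panel plots 1 gene, with CPM from 0 on the vertical axis and a point for each library. The bar beside each group is the mean with SD (4 mutant and 6 wild-type libraries). Pdgfd is the gene whose groups do not overlap, with mutants between 10.0 and 11.8 CPM and wild type between 13.3 and 18.0 CPM.

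Levels between genes were compared as the deposited FPKM values, which are scaled for transcript length. Ctgf had the highest mean over the 10 libraries at 23.5 FPKM, followed by Thbs1 at 16.6, Tgfb1 at 15.4, Pdgfb at 11.8, Pdgfa at 8.30, Pdgfd at 7.65 and Pdgfc at 6.05 FPKM. Tgfb3 and Tgfb2 were the rarest, at 0.778 and 0.704 FPKM. Neighbours in this order mostly overlapped. Ctgf was above Thbs1 in 8 of 10 libraries, Tgfb1 above Pdgfb in 6, Pdgfb above Pdgfa in 5 and Pdgfa above Pdgfd in 5, whereas Pdgfc was above Tgfb3 in 10 of 10. The order of Ctgf and Tgfb1 turned with the library. In wild-type replicate 1, which had the lowest Adgre1, Ctgf was at 15.0 FPKM and Tgfb1 at 3.11 FPKM, and in mutant replicate 5, which had the highest, Ctgf was at 30.1 FPKM and Tgfb1 at 46.9 FPKM.

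Tgfb1 encodes the most studied isoform of TGF-beta in fibrosis (gene 21803, mm10 chromosome 7, 25687002 to 25705077). Its level was 14.2, 17.9, 44.9 and 96.8 CPM in mutant replicates 1, 2, 4 and 5. In wild type it was 7.98 CPM in the lowest library, 16.3 CPM at the median and 66.9 CPM in the highest. Mutant replicates 1, 2 and 4 lay inside the range of the wild type, mutant replicate 5 lay above it, and the groups overlapped. Mean levels were 43.4 ± 38.1 CPM over 4 mutant and 25.3 ± 21.9 CPM over 6 wild-type libraries (± SD). The genotypes differed by 0.78 in log2 (SE 0.67, 95% interval -0.71 to 2.26, edgeR adjusted p = 0.959). That value was 0.02 when mutant replicate 5 was left out and 1.35 when wild-type replicate 6 was, the libraries of each group with the highest Adgre1.

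With Adgre1 as covariate the genotype term of Tgfb1 was -0.01 (SE 0.176, 95% interval -0.39 to 0.38, edgeR adjusted p = 0.986). That interval is narrower than the one without the covariate. Tgfb1 itself rose by 0.63 on the log2 scale for each doubling of Adgre1 (SE 0.0492, 95% interval 0.53 to 0.74, edgeR adjusted p = 2.56e-06), which is 1.55-fold. The slope was 0.69 within the 4 mutant libraries and 0.60 within the 6 wild-type libraries, each by least squares.

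Pdgfb and Tgfb3 rose with Adgre1 as well. PDGF-B is made by endothelium, platelets and macrophages and recruits pericytes (Pdgfb, gene 18591, chromosome 15, 79995876 to 80014808). Pdgfb was at 20.6, 16.7, 37.4 and 83.7 CPM in mutant replicates 1, 2, 4 and 5. The lowest, median and highest wild-type values were 17.6, 23.5 and 65.5 CPM. Mutant replicate 2 was below and mutant replicate 5 above all wild-type libraries, with the others inside their range. Its difference by genotype was 0.38 in log2 (SE 0.504, edgeR adjusted p = 0.961). It became -0.29 when mutant replicate 5 was left out and 0.76 when wild-type replicate 6 was. With Adgre1 as covariate it was -0.25 (SE 0.23, adjusted p = 0.676). The slope of Pdgfb on Adgre1 was 0.42 (SE 0.0604, adjusted p = 0.00035), with 0.56 within mutants and 0.34 within wild type.

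Tgfb3, the isoform known from palate and lung development (gene 21809, chromosome 12, 86056743 to 86079041), was rare, with 51 to 334 reads per library. It was at 1.40, 1.81, 2.69 and 5.80 CPM in mutant replicates 1, 2, 4 and 5. Wild-type libraries held 0.971 CPM at the lowest, 2.13 CPM at the median and 4.66 CPM at the highest. Here too mutant replicate 5 alone stood above the wild type. The genotypes differed by 0.31 in log2 (SE 0.51, edgeR adjusted p = 0.962), which became -0.26 when mutant replicate 5 was left out and 0.62 when wild-type replicate 6 was. With the covariate it was -0.25 (SE 0.269, adjusted p = 0.727). The slope on Adgre1 was 0.46 (SE 0.0769, adjusted p = 0.00102).

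Among the 9 genes these 3 rose with Adgre1 in edgeR and 0 fell, while 19.7% of all genes rose and 16.2% fell, so that 36.0% of genes followed Adgre1 in all. Both libraries with the highest Adgre1 were then left out, after seeing the data. Without them 1310 of 15099 genes rose in edgeR, against 2983 of 15122 in all libraries. The slope of Tgfb1 still passed (0.56, edgeR adjusted p = 0.00248). Those of Pdgfb (0.26, adjusted p = 0.0524) and Tgfb3 (0.40, adjusted p = 0.0958) no longer passed. Other cell types moved along the same gradient. All 9 other resident macrophage markers, 6 of 6 monocyte markers, 5 of 8 endothelial markers, 6 of 11 fibroblast, pericyte and mesangial markers and 5 of 5 podocyte markers rose with Adgre1 as well, and 2 of 8 proximal tubule markers fell. Of the 7 markers of thick ascending limb and distal tubule 3 fell, Umod among them (slope -0.31, edgeR adjusted p = 0.0135), and 0 rose. Of 7 collecting duct markers 1 fell and 0 rose, and of 4 tested T and NK cell markers 0 rose and 0 fell. Of the 7 platelet markers 4 were tested, of which 1 rose and 1 fell. The other platelet markers Gp6, Gp9 and Treml1 averaged 0, 0.0187 and 0.0299 CPM in mutants and 0.0116, 0.0878 and 0.0828 CPM in wild type. The part of these cell types in the slopes of Tgfb1, Pdgfb and Tgfb3 was not tested. Adgre1 rose with the replicate number within each genotype, from 58.2 to 819 CPM in mutants and from 13.96 to 406 CPM in wild type. Slopes on Adgre1 therefore cannot be told apart from any effect of replicate order.

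**Figure D2:**
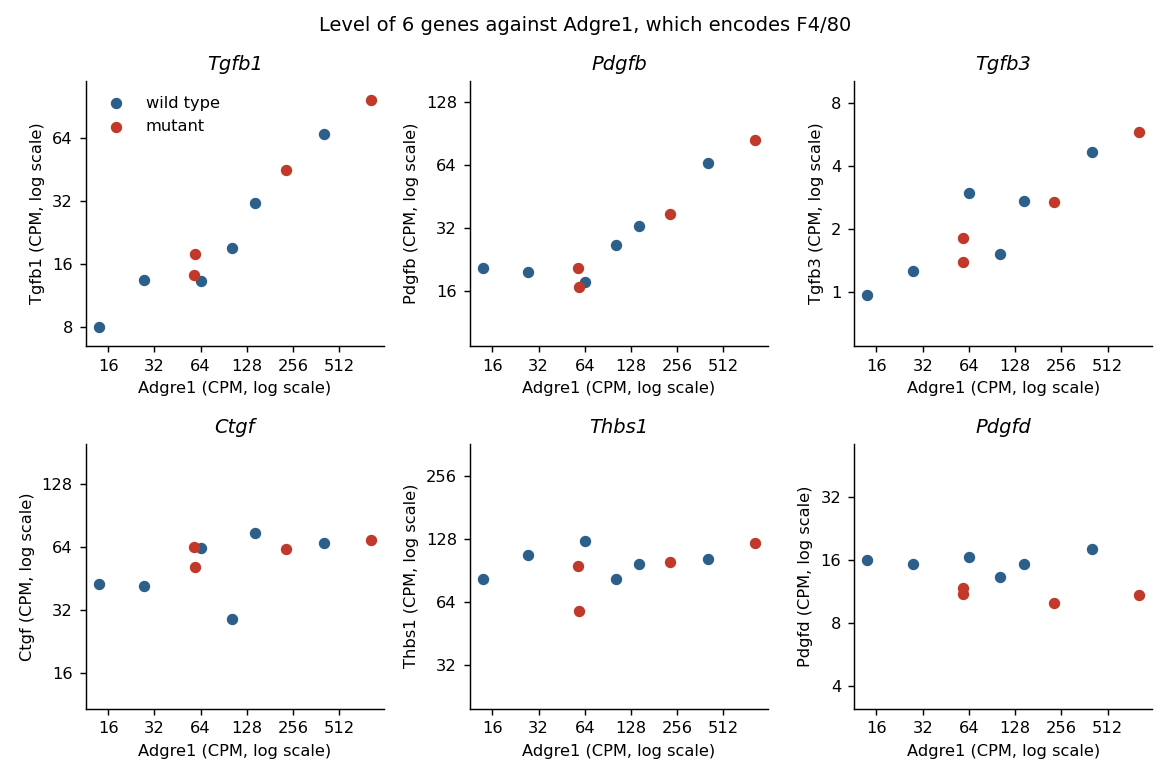
Each panel plots 1 gene in CPM against Adgre1 in CPM, both on log2-spaced axes that span the same fold in every panel, with a point for each library (mutant red, wild type blue). Tgfb1, Pdgfb and Tgfb3 climb with Adgre1 with the points of both genotypes intermixed, and every mutant point of Pdgfd lies below every wild-type point.

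Tgfb2, the isoform that needs betaglycan to bind its receptors well (gene 21808, chromosome 1, 186622792 to 186705989), was at 4.15, 2.46, 3.87 and 3.96 CPM in mutant replicates 1, 2, 4 and 5. Among wild-type libraries the lowest, median and highest were 2.11, 3.38 and 5.74 CPM. The mutants lay inside the range of the wild type. The log2 fold change was -0.0030 (SE 0.275, 95% interval -0.61 to 0.60, edgeR adjusted p = 1.0). Its slope on Adgre1 was 0.18 (SE 0.0663, adjusted p = 0.0553), which passed in DESeq2 (adjusted p = 0.0367, where 22.1% of genes rose) and in limma-trend (0.0473) and did not in edgeR. The 2 deposited transcripts of Tgfb2 took all of its reads in turn: in 8 of 10 libraries 1 variant held every read, so the variants were not compared.

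Pdgfd was the gene of the 9 whose groups did not overlap. It encodes PDGF-D, which binds the beta receptor (gene 71785, chromosome 9, 6168612 to 6377519). It was at 11.04, 11.8, 10.0 and 10.96 CPM in mutant replicates 1, 2, 4 and 5. In wild type its lowest, median and highest values were 13.3, 15.8 and 18.0 CPM. Each mutant library was below each wild-type library, a pattern that 1.02% of all genes showed in this direction. The means were 10.96 ± 0.747 CPM (SD, n = 4) and 15.8 ± 1.57 CPM (SD, n = 6), a ratio of 0.694. In log2 terms the difference was -0.53 (SE 0.122, 95% interval -0.80 to -0.26). The unadjusted p was 0.00122, which ranked 88 of 15123 genes (3.02% of genes had one under 0.05 and were lower), and the edgeR adjusted p of 0.21 did not pass.

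With the Adgre1 covariate Pdgfd had a genotype term of -0.53 (SE 0.123, edgeR adjusted p = 0.127; 5.91% of genes were lower at an unadjusted p under 0.05) and a slope on Adgre1 of 0.0030 (SE 0.0352, adjusted p = 0.958). DESeq2 called it without the covariate (adjusted p = 0.00574, where 0.509% of genes were called lower) and with it (adjusted p = 0.00794, where 1.10% were). Leaving out 1 library at a time gave log2 fold changes between -0.58 and -0.49, none of which passed in edgeR. Scores of resident macrophage, proximal tubule or fibroblast, pericyte and mesangial markers in place of Adgre1 gave -0.53, -0.57 and -0.52 (edgeR adjusted p = 0.1125, 0.211 and 0.126). For the 7 markers of thick ascending limb and distal tubule the summed CPM was 3293 to 9437 in mutants and 11290 to 24600 in wild type, without overlap. Without a covariate 1 of the 7, Egf, was called lower in edgeR. With Adgre1 as covariate 2 were, Umod among them (edgeR adjusted p = 0.0156). The sum of the 5 other than Umod and Egf was 1990 to 4026 in mutants and 2718 to 4179 in wild type, with overlap. Of these 5, mean CPM in mutants against wild type was 1121 against 1738 for Slc12a1, 28.6 against 45.3 for Cldn16 and 440 against 536 for Kcnj1. It was 599.5 against 627.5 for Slc12a3 and 668 against 550 for Calb1. The summed CPM of 11 fibroblast, pericyte and mesangial markers was 307 to 702 in mutants and 297 to 1026 in wild type. The part of any of these cells in the level of Pdgfd was not tested.

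Pdgfc, which encodes PDGF-C, a ligand of the alpha receptor (gene 54635, chromosome 3, 81036416 to 81214031), was at 19.9, 18.9, 14.3 and 20.9 CPM in mutant replicates 1, 2, 4 and 5. In wild type its lowest, median and highest values were 19.1, 22.7 and 31.9 CPM. Only mutant replicates 2 and 4 were below the whole wild-type range. Pdgfc differed by a log2 fold change of -0.36 (SE 0.172, 95% interval -0.74 to 0.02, edgeR adjusted p = 0.861), and with the Adgre1 covariate -0.29 (SE 0.167, adjusted p = 0.496).

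Pdgfa, whose product binds the alpha receptor (gene 18590, chromosome 5, 138976972 to 138994953), varied least, 1.68-fold over the 10 libraries. It was at 7.67, 8.86, 8.13 and 11.02 CPM in mutant replicates 1, 2, 4 and 5, and between 6.56 and 9.10 CPM in wild type. The log2 fold change was 0.11 (SE 0.153, 95% interval -0.22 to 0.45, edgeR adjusted p = 0.962) and the slope on Adgre1 was 0.01 (SE 0.045, adjusted p = 0.829).

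**Figure D3:**
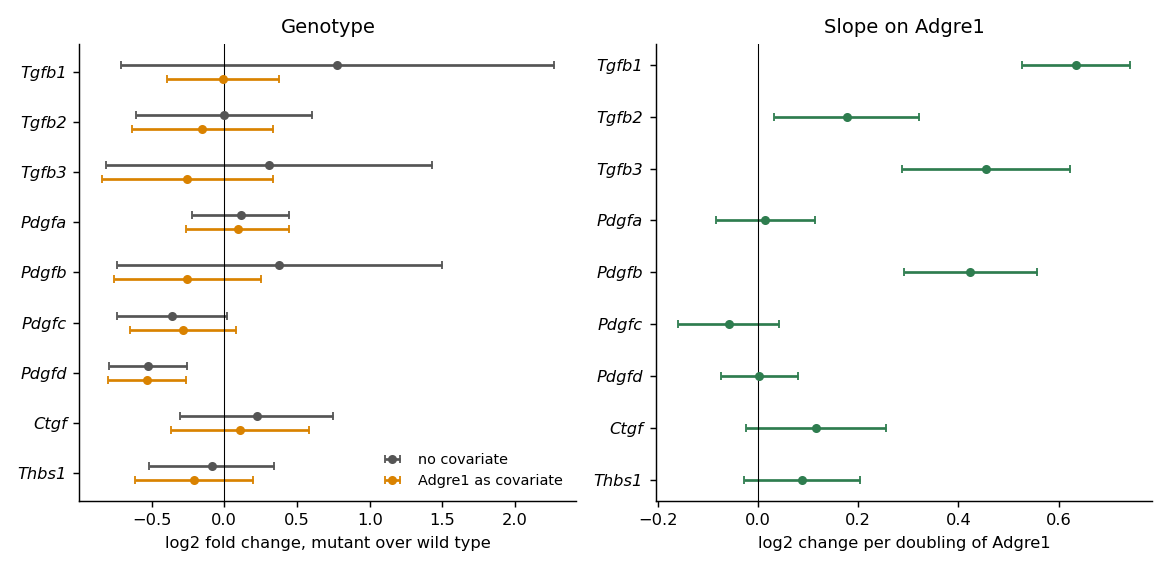
The left panel plots the log2 fold change of mutant over wild type for each gene with its 95% interval, without a covariate (grey) and with log2 CPM of Adgre1 as covariate (orange). The right panel plots the log2 change per doubling of Adgre1. The intervals of Tgfb1, Tgfb3 and Pdgfb shrink with the covariate, and the interval of Pdgfd stays below 0 in both fits.

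The promoters of Tgfb1 and Pdgfd are shown because the results turn on these genes, one having the largest slope on Adgre1 among the 9 and the other having groups that did not overlap. Both are RefSeq sequences on build GRCm38.p6, from 250 bases before to 50 after the annotated start, on the plus strand at chr7:25686752-25687051 and chr9:6168236-6168535. The RefSeq table held a promoter for 5 of the 9 genes. Its start of Pdgfd lies 126 bases before the start of the deposited transcript. Capitals mark matches on either strand to the motifs searched.
Tgfb1: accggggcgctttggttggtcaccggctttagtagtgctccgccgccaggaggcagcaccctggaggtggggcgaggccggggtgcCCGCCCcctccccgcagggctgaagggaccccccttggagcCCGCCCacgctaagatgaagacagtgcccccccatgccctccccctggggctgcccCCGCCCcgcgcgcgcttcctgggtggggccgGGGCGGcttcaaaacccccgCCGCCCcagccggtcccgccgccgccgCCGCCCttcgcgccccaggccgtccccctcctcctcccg
Pdgfd: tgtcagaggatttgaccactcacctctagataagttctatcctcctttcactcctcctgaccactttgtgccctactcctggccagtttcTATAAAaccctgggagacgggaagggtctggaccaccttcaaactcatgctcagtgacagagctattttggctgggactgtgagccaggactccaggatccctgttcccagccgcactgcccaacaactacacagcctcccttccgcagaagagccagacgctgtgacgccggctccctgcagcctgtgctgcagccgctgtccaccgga
The Tgfb1 promoter had 6 matches to the GC box (GGGCGG), a motif in 35.9% of the 32544 promoters of this length, and a GC content of 77.0%, against a median of 53.0% over all promoters. The Pdgfd promoter had 1 match to the letters of the TATA box (TATAAA), at -160 from the annotated start. That motif was found in 13.6% of promoters. The GC content of the Pdgfd promoter was 56.7%. Neither window held GAGGAA, the core that the myeloid factor PU.1 binds (28.1% of promoters), GGAATG, the core bound by TEAD factors (14.6%), the AP-1 site TGANTCA (7.79%), the SMAD palindrome GTCTAGAC (0.215%) or the C/EBP-ATF site TGATGCAA (0.867%). The matches in capitals do not overlap each other, and a match describes letters only.

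Ctgf and Thbs1, read out in many studies as targets of TGF-beta, did not move with genotype past the threshold. Ctgf encodes connective tissue growth factor, a matricellular protein also induced by YAP and TAZ (gene 14219, chromosome 10, 24595442 to 24598682). It was at 63.8, 51.1, 62.6 and 68.7 CPM in mutant replicates 1, 2, 4 and 5. In wild type its lowest, median and highest values were 28.9, 52.8 and 74.0 CPM, so that all mutants lay inside the wild-type range. The log2 fold change was 0.22 (SE 0.239, 95% interval -0.30 to 0.75, edgeR adjusted p = 0.96). The slope on Adgre1 was 0.12 (SE 0.0637, adjusted p = 0.18), and passed without wild-type replicate 4 alone, the lowest library of Ctgf (0.13, adjusted p = 0.0247).

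Thbs1 encodes thrombospondin 1, which can release TGF-beta from its latent complex (gene 21825, chromosome 2, 118111876 to 118127133). It was at 95.3, 58.1, 99.6 and 123 CPM in mutant replicates 1, 2, 4 and 5. In wild type its lowest, median and highest values were 82.5, 100.2 and 125 CPM. Mutant replicate 2 was below the wild type and the others were inside its range. For Thbs1 the log2 fold change was -0.09 (SE 0.196, 95% interval -0.52 to 0.34, edgeR adjusted p = 0.973).

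The share of Thbs1 reads on each of its 2 deposited transcripts did not overlap between the genotypes. Variant 2, which is 5845 bases long against 5848 for variant 1, held 53.1%, 51.6%, 44.3% and 49.0% of Thbs1 reads in mutant replicates 1, 2, 4 and 5. In wild type it held 23.6% in the lowest library and 43.3% in the highest. Each mutant library was above each wild-type library, and shares did not overlap for 1.01% of 1782 genes with 2 deposited transcripts that each held 5% to 95% of reads on average. The means were 49.5% ± 3.85 (SD, n = 4) and 36.3% ± 7.80 (SD, n = 6), a difference of 13.1 percentage points (two-sided exact permutation p = 0.0238 over 210 assignments of the libraries, the smallest possible being 0.00476). The share was picked for mention after seeing its values, and its p is adjusted neither for that choice nor for Adgre1. Tested by itself, variant 1, the more abundant transcript, differed by -0.41 in log2 (SE 0.229, edgeR adjusted p = 0.9996). The transcripts are nearly equal in length, and the way reads were apportioned between them was not given in the sources used here.

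**Figure D4:**
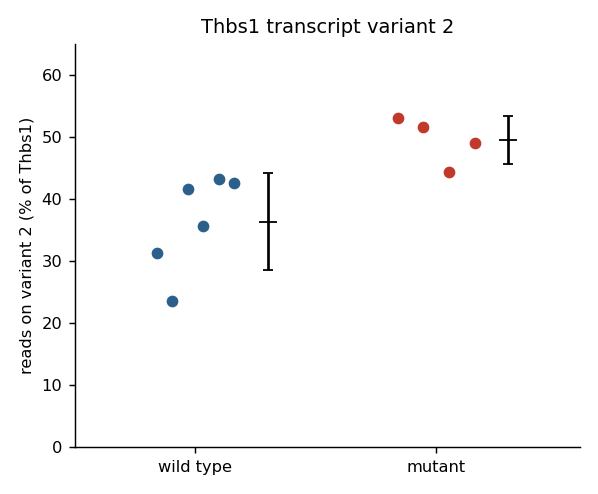
Points give the share of Thbs1 reads that the deposited table assigns to transcript variant 2, in percent from 0, 1 for each library, and the bar beside each group is the mean with SD. Mutant libraries lie between 44.3% and 53.1% and wild-type libraries between 23.6% and 43.3%.

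The slopes on Adgre1 were compared between genotypes by an interaction term. It passed for 0 of the 9 genes in edgeR, against 0.00% of all genes (853 of 15122 had an unadjusted p under 0.05, and limma-trend called 0). The differences of slope, mutant minus wild type, ran from -0.17 for Tgfb2 to 0.22 for Pdgfb (SE 0.113, unadjusted p = 0.0811), and all 9 had an unadjusted p above 0.05. Single libraries moved these differences. For Pdgfb the value was 0.089 without wild-type replicate 1 and 0.38 without wild-type replicate 6, where the unadjusted p was 0.00456 (edgeR adjusted p = 0.683). For Tgfb2 it was -0.059 without mutant replicate 1 and -0.26 without mutant replicate 2, and for Thbs1, at 0.16 in all libraries, 0.075 without mutant replicate 2 and 0.26 without mutant replicate 1.

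The rest of both pathways was followed through 91 genes of 7 lists, all of which were tested. By genotype 0 of the 91 were called in edgeR, 12 had an unadjusted p under 0.05 (5.90% of all genes), DESeq2 called 1, Tgif1 (0.946% of all genes), and limma-trend called 0. The median log2 fold change of the 91 was -0.03, beside 0.01 over all genes. In the fit with Adgre1 as covariate it was -0.20, beside -0.02, and 23 of the 91 were positive, against 7119 of 15122 genes. With the Adgre1 covariate 0 were called in edgeR and in limma-trend, 26 had an unadjusted p under 0.05 (12.9% of all genes) and DESeq2 called 5, which were Itgb6, Tgfbr3, Tgif1, Pdgfrb and Gdf15 (2.20% of all genes). On the Adgre1 gradient 37 of the 91 rose and 5 fell in edgeR, where 19.7% of all genes rose and 16.2% fell. The same shares stand beside the counts of each list below. The median slope of the 91 was 0.19, beside 0.01 over all genes.

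Among 16 genes of TGF-beta latency and activation, 8 rose and 1 fell with Adgre1, and 0 were called by genotype in edgeR. Itgb6, a subunit of the epithelial integrin that releases TGF-beta, was at 76.6 ± 30.3 CPM over 4 mutant and 126 ± 22.5 CPM over 6 wild-type libraries (mean ± SD). The groups overlapped, and the log2 difference was -0.72 (SE 0.244, edgeR adjusted p = 0.699). Itgb6 fell with Adgre1, by 0.21 per doubling (SE 0.0395, adjusted p = 0.0021). Itgb8, a partner of the alpha v chain that also releases TGF-beta, differed by -0.50 in log2 (SE 0.243, adjusted p = 0.881). Nrros, which holds latent TGF-beta on microglia and macrophages, was at 123 CPM in mutant replicate 5, and its mean was 11.9 CPM over the other 3 mutants and 12.4 CPM over wild type. Its log2 difference by genotype was 1.68 (SE 0.804, adjusted p = 0.867), and 0.16 with the covariate. Nrros rose with Adgre1 (slope 0.78, adjusted p = 3.97e-05).

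Of 16 receptors and SMAD proteins 7 rose and 1 fell with Adgre1. Tgfbr3, which encodes betaglycan, differed by -0.60 in log2 (SE 0.221, edgeR adjusted p = 0.707), and by -0.77 with the covariate (SE 0.159, adjusted p = 0.0842). The inhibitory SMAD genes Smad7 and Smad6 had -0.38 and -0.31, with adjusted p of 0.911 and 0.959. Smad7 fell with Adgre1 (slope -0.15, adjusted p = 0.015).

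Of 18 further TGF-beta target genes, among them collagens, 8 rose and 1 fell with Adgre1. By genotype the gene with the smallest p was Tgif1, a repressor of SMAD signalling, with 44.0, 30.8, 24.1 and 36.5 CPM in mutant replicates 1, 2, 4 and 5. In wild type Tgif1 lay between 15.5 and 22.0 CPM, below every mutant library, a pattern that 0.946% of genes showed in this direction. Its log2 fold change of 0.86 (SE 0.17) did not pass in edgeR (adjusted p = 0.12), and was 0.87 with the Adgre1 covariate. The cell cycle inhibitor gene Cdkn2b had 0.51 (adjusted p = 0.882).

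Of 8 PDGF receptors, co-receptors and processing proteases, 5 rose and 1 fell with Adgre1. Plau, the urokinase gene, whose product can cleave PDGF-D, differed by -0.57 in log2 (SE 0.24, edgeR adjusted p = 0.812), Plat, whose product cleaves PDGF-C, -0.54 (SE 0.531, adjusted p = 0.959) and Plaur, the urokinase receptor gene, 0.87 (SE 0.304, adjusted p = 0.699). The 5 VEGF relatives of PDGF had 0 calls on the Adgre1 gradient in edgeR, in DESeq2 and in limma-trend, and 0 of the 5 had an unadjusted p under 0.05 there. Vegfb, Vegfc and Vegfd had log2 fold changes by genotype of -0.19, -0.26 and -0.21.

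Of 13 other CCN proteins, thrombospondins and YAP or TAZ targets, 5 rose with Adgre1 and 0 fell. By genotype Amotl2, a YAP target, differed by -0.40 in log2, Wisp1, a CCN protein, 1.23 and Ankrd1, another YAP target, 0.65, with edgeR adjusted p of 0.799, 0.84 and 0.84. Of 15 other ligands and antagonists of the TGF-beta superfamily, 4 rose and 1 fell with Adgre1. Grem1, which encodes the BMP antagonist gremlin, was at 0.369, 0.885, 3.28 and 3.31 CPM in mutant replicates 1, 2, 4 and 5 and at most 0.633 CPM in wild type (log2 fold change 2.96, SE 1.07, adjusted p = 0.701). Bmp7 and Bmp4 had -0.37 and -0.63, with adjusted p of 0.755 and 0.76.

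The genes whose log2 CPM over the 10 libraries was most like each of the 9 are given as a description. For Tgfb1 they were Hcls1, Fyb and Ppfia4 (Pearson r = 0.993, 0.993 and 0.992), and for Pdgfb Pfkfb4, Arap1 and Rftn1 (0.991, 0.99 and 0.989). Those of Tgfb3 were Timp2, Serpinf1 and Gsn (0.989, 0.98 and 0.977), and those of Tgfb2 were Boc, Eng and Ldb2 (0.95, 0.944 and 0.939). For Pdgfd they were Sept1, Irx1 and Lmo1 (0.969, 0.966 and 0.946), and for Pdgfc Dtwd1, Col8a1 and Mgat1 (0.931, 0.899 and 0.877). Pdgfa was most like Isy1, Rtfdc1 and Nras (0.914, 0.896 and 0.895), Ctgf most like Pcdhgc3, Qpct and Slx1b (0.925, 0.908 and 0.906), and Thbs1 most like Mon1b, Arhgef10 and Kdm6a (0.953, 0.931 and 0.918). All these values share the libraries and the Adgre1 gradient.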

How the data were processed

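The authors deposited 1 table of estimated counts and FPKM values per RefSeq transcript for each library, with coordinates on mm10. Per the submitters' processing notes the tools include StringTie 1.3.4d, HISAT2 2.1.0, Bowtie2 2.3.4.1, DESeq2 and Trimmomatic 0.38, with no step named. The deposited estimated counts are whole and unscaled. For 100.0% of values of at least 20 counts they matched FPKM times length times a library constant to within 1 read or 0.5%. Libraries are strand-specific and oligo-dT selected, per the labels' protocols; the apportioning of reads between transcripts was not given in the sources used here. Genes overlapping a member on either strand, Mir7213 and Ddi1, had 0 counts.

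Counts were summed per symbol, filtered with filterByExpr, scaled by TMM and tested with edgeR 4.0.16 (R 4.3.3) by its robust quasi-likelihood F test, with Benjamini-Hochberg adjustment over all genes tested. Fits used genotype alone, genotype with log2 CPM of Adgre1 (prior count 2), and their interaction; Adgre1 was left out of the last fits. SE came from the estimate and its F statistic. Only the edgeR fits with genotype alone and with genotype and Adgre1 were also run on simulated counts, with no outcome given here. Libraries of the same group were no duplicates (smallest chi-square per gene 73.0). Alternatives were other scalings and tests (DESeq2 1.42.0, limma 3.58.1), no filter, other covariates, single transcripts, a replicate block and leaving out libraries. Of each pathway list, the 3 genes with the smallest p were named, except 1 gene that is not reported here, and for each of the 9 genes the 3 most correlated genes whose log2 CPM averaged at least 1. The members, lists and tests were chosen with earlier results of these data known. The series' design text counts 4 mutant and 6 wild-type mice, so p-values and intervals measure the spread between libraries of different mice. The spread of mice and that of bead selections cannot be told apart, and Adgre1 varied 58.6-fold over the libraries. The labels name no batch. Library totals of 45380415 to 73643200 gave Tgfb2 and Tgfb3, the rarest of the 9, counts of 51 to 411.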

Additional observations from a re-analysis of the deposited data

Results flagged for a closer look

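Among 18 sets of values, 9 genes in each of both groups, 2 held a library far from the others by Dixon's test, which chance does in about 1 of 20 sets. Tgfb2 was at 2.46 CPM in mutant replicate 2, below the other 3 mutant libraries at 3.87 to 4.15 CPM. Pdgfa was at 6.56 CPM in wild-type replicate 4, below the other 5 wild-type libraries at 8.25 to 9.10 CPM.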

How the results depend on the processing

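Among values of the 9 genes under alternatives, 548 kept their direction and their side of the threshold, 40 turned sign with an adjusted p of 0.464 or more, 6 came to pass and 2 ceased to pass; the causes were not tested. The 30 genes called by genotype became 143 in DESeq2 (66 higher, 77 lower) and 14 to 24 with 1 library left out, the fewest without mutant replicate 1 and 19 without mutant replicate 5. The 51 called with the Adgre1 covariate became 333 in DESeq2, 29 with proximal tubule markers as covariate and 23 to 64 with 1 library left out, the fewest without mutant replicate 1. The 5438 genes that followed Adgre1 became 2218 without both libraries highest in Adgre1 and 3477 to 5545 with 1 left out, the fewest without mutant replicate 5; the count of differing slopes was 0 to 1, the 1 without mutant replicate 5.

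The replicate numbers 1, 2, 4 and 5 were not taken as pairs: deviations from the group means correlated at 0.43, 0.28, 0.017 and 0.45 between same-numbered libraries, and 3 of 8 libraries correlated best with their own number. As a block over those 8 libraries they gave 217 calls by genotype (21 without the block). With the Adgre1 covariate the block gave 0 calls in edgeR (257 genes at an unadjusted p under 0.05), against 44 calls without the block. Adgre1 rose with the replicate number in each genotype, so block and covariate overlap. With both, the SE of the genotype term was 0.553 for Tgfb1 and 0.483 for Pdgfd. In the same libraries with the covariate and no block it was 0.192 and 0.146. With the block Tgfb2 turned to 0.21 (0.20 in the same libraries without it), and with the covariate Tgfb1 turned to 0.20 and Tgfb3 to 0.38. With the block Tgfb1 was at 1.03 (adjusted p = 0.0642), Tgfb3 at 0.74 (0.234) and Ctgf at 0.47 (0.288), against 1.28, 0.84 and 0.40 in the same libraries without it, and with block and covariate Ctgf was at 1.26 (adjusted p = 1.0). Pdgfd had -0.45 with the block (adjusted p = 0.184), and -0.30 with block and covariate (adjusted p = 1.0).

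Without covariate, Tgfb2 also turned to 0.031 in limma-trend, 0.13 without both libraries highest in Adgre1 and 0.18 for its most abundant transcript, Pdgfa to -0.0061 without both, and Thbs1 to 0.022 in the 8 libraries. With 1 library left out the ranges that crossed 0 were -0.13 to 0.18 for Tgfb2, -0.24 to 0.077 for Thbs1, -0.26 to 0.62 for Tgfb3, -0.0064 to 0.17 for Pdgfa and -0.29 to 0.76 for Pdgfb. With covariate, Tgfb1 turned to 0.0057 in limma-trend, 0.079 without both highest libraries, and 0.069, 0.012 and 0.72 with resident macrophage, proximal tubule or fibroblast, pericyte and mesangial markers as covariate. With the last of these Tgfb2, Tgfb3 and Pdgfb turned to 0.071, 0.38 and 0.28, and Tgfb2 turned to 0.0019 without both highest libraries and to 0.012 in the 8 libraries. With 1 library left out, Tgfb1 ran from -0.089 to 0.10 and Ctgf from -0.045 to 0.23. Slopes of Pdgfd turned to -5.1e-06 in DESeq2 and -0.053 without both highest libraries, where that of Pdgfa was -0.066; with 1 left out they ran from -0.030 to 0.014 and from -0.037 to 0.043. Differences of slopes ran from -0.061 to 0.099 for Tgfb3, -0.12 to 0.14 for Pdgfc and -0.12 to 0.015 for Pdgfd. The slope of Tgfb2 passed without mutant replicate 1 (0.23, adjusted p = 0.0207). The share of Thbs1 reads on variant 2 differed by 10.6 to 14.9 points with 1 library left out, and by 14.5 without both highest libraries.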
